A study of Mus musculus with 12 samples.

Results

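Disease-associated microglia are microglia that have left the resting state and express a set of genes for lipid handling, lysosomal degradation, adhesion and signalling, a state described around amyloid plaques and in other forms of brain damage. In the usual description its first stage is reached without the receptor Trem2 and its second stage depends on it. The genes studied here are 8 core members of that state, namely *Itgax*, *Clec7a*, *Gpnmb*, *Cd52*, *Spp1*, *Csf1*, *Ccl6* and *Lgals3*. They were taken from the count table by their symbols from a fixed list of names, with no threshold on a value. All 8 were found among the 55487 genes listed. The list was chosen with earlier results of these data known, so the shares of all tested genes given below describe the set and do not test it.

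Levels of these genes were measured by mRNA-sequencing of CD11b-positive cells, which were collected with magnetic beads from papain-digested cerebral cortex of male mice. The 4 groups held 3 mice each, and every library came from a mouse of its own. WT mice were compared with App NL-G-F mice (called App mice from here on), whose own *App* gene was given a humanized Aβ sequence and the Swedish, Iberian and Arctic mutations of familial AD. Mice of both strains received either PBS (veh) or 10 mg/kg of rh Bri2 BRICHOS R221E, the recombinant human chaperone domain of Bri2 with a changed residue that keeps it monomeric. All 12 mice had 24 intravenous injections over 12 weeks from 9 months of age, and were sacrificed 4 weeks after the last one. The knock-in is under the control of the *App* gene itself and is therefore not limited to microglia, and CD11b is carried by border macrophages, monocytes, neutrophils and other myeloid cells as well as by microglia.

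The depth was 12433402 to 17889654 counted reads per library. At this depth 3 counts correspond to 0.168 to 0.241 CPM (counts scaled to the normalized library total), and this floor accounts for counting error alone. In every group the 6 microglial markers were present. Their summed level was 24890 to 27460 CPM in veh-treated WT and 21910 to 23410 CPM in veh-treated App mice. By edgeR 5 of the 6 were called lower in veh-treated App mice and 1 higher, where 16.9% of all tested genes were called lower and 20.1% higher. The *App* gene was at 719.9 CPM in veh-treated WT and at 569.3 CPM in veh-treated App mice (adjusted p = 0.12 by edgeR), a level that does not check an edit within the coding sequence. Marker lists of other cells differed between the strains as well. Of the 6 astrocyte markers all were higher in veh-treated App mice, with a summed level of 1375 to 4419 against 414.2 to 586.9 CPM, and the 6 neutrophil markers were all lower, at 13.32 to 33.77 against 32.75 to 365.5 CPM, of which 3 of 6 were called without veh-treated App mouse 1. Border macrophage markers were lower as well (6 of 7, summed level 175.9 to 242.4 against 405.2 to 476.7 CPM), and so were 3 of 6 monocyte markers (17.64 to 24.9 against 22.18 to 55.33 CPM). Also lower in veh-treated App mice were 5 of 6 endothelial markers (413.2 to 556.6 against 557.7 to 630.7 CPM), 3 of 6 neuronal ones (5.921 to 6.403 against 13.32 to 21.68 CPM), 2 of 6 oligodendrocyte ones (3143 to 5551 against 9585 to 16800 CPM), 2 of 4 tested dendritic cell ones (21.18 to 25.35 against 48.7 to 58.58 CPM) and 1 of 5 B cell ones. None of the microglial, astrocyte, neutrophil, border macrophage and monocyte markers was at 0 in a whole group. Their part in the results on the 8 genes was not tested.

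Before the values, the DNA upstream of 4 of the genes is shown, to place the members with the largest differences between the strains (*Itgax*, *Spp1* and *Gpnmb*) and the pattern recognition receptor of the set (*Clec7a*) in the genome. RefSeq entries of the build GRCm38.p6 were matched for 7 of the 8 genes, and *Cd52* had no entry in the table used. Each sequence is the 250 bases before the annotated start, 5′ to 3′ on the strand of the gene. Capitals mark matches, on either strand, to a PU.1 core (GAGGAA, the factor that sets the myeloid lineage), an AP-1 site (TGACTCA, or TGAGTCA on the other strand) or a TATA box core (TATAAA). They were read from chr7:128129300-128129549 (+) for *Itgax*, chr6:129472786-129473035 (−) for *Clec7a*, chr5:104434861-104435110 (+) for *Spp1* and chr6:49036268-49036517 (+) for *Gpnmb*.
Itgax: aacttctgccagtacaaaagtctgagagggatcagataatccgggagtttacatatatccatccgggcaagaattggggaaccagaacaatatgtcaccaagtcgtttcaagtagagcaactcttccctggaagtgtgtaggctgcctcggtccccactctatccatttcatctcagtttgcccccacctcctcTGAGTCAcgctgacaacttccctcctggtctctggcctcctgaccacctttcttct
Clec7a: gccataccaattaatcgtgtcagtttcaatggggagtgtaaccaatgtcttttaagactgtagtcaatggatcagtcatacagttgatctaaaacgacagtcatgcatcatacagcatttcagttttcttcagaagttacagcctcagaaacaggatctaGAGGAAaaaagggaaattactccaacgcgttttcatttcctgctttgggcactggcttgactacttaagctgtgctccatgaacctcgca
Spp1: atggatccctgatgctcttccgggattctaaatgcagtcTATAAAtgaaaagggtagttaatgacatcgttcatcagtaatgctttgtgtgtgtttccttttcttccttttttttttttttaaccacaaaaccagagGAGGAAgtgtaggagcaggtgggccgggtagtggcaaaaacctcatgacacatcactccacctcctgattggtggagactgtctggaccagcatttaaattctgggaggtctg
Gpnmb: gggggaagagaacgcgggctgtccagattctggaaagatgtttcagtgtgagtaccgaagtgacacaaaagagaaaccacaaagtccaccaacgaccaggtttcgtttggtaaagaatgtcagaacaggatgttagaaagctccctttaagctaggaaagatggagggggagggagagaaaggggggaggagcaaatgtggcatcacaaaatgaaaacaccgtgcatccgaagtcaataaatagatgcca

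The window of *Itgax* held an AP-1 site 56 bases before the start, that of *Clec7a* a PU.1 core 90 bases before it, and that of *Spp1* a PU.1 core 113 bases and a TATA core 211 bases before it. None of the letters searched was in the *Gpnmb* window, which includes those of the E-boxes CACGTG and CATGTG, bound by factors of the MITF and TFE family. Among the 7 windows of the set, the PU.1 core was in 2 and the AP-1 site in 1, where 23.1% and 4.43% of all 27025 windows held them. The TATA core was in 1 of 7 (13% of all windows), and the 2 E-boxes in 0 of 7 (6.04% and 12.2%). The matches do not overlap each other, and they describe letters, not binding.

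The first comparison asked how far the genes differ between App and WT mice that both received veh. All 8 were higher in App mice by edgeR's quasi-likelihood test, with an adjusted p-value (Benjamini-Hochberg, over the 15425 genes tested) under 0.05, of which 20.1% were called higher. The median log2 fold change of the 8 was 3.83, and that of all tested genes −0.022. In 8 of 8 the lowest App mouse lay above the highest WT mouse, which was the case in 25.5% of the tested genes. Together they took a median of 0.0509% of all counted reads in veh-treated WT mice (0.05% to 0.0557%) and of 0.831% in veh-treated App mice (0.773% to 1.03%). In bulk samples a change in the share of cells that express a gene cannot be told apart from a change in RNA per cell. The p-values weigh a difference against the spread between mice, which was estimated over all 4 groups with information shared across genes.

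**Figure D1:**
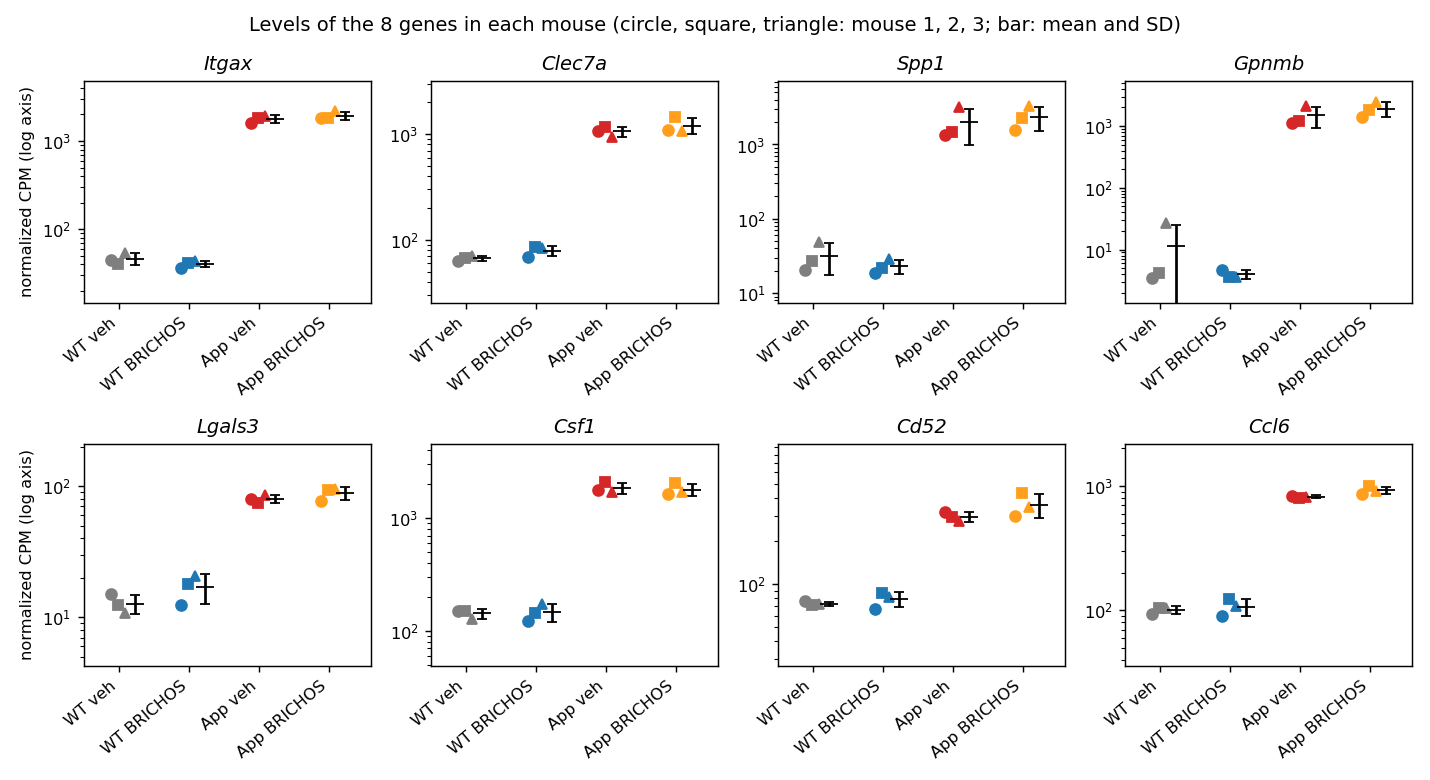
Normalized CPM of each of the 8 genes (vertical axis, log scale) in the 12 mice of the 4 groups, with 1 symbol per mouse and a bar for the mean and SD of n = 3. In each panel the 6 App mice lie above the 6 WT mice, and the lower end of the SD bar of *Gpnmb* in veh-treated WT mice (11.48 ± 13.3 CPM) is below 0 and so off the axis.

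*Itgax* encodes CD11c, an integrin alpha chain that pairs with the beta2 chain and binds complement fragments and adhesion molecules (ENSMUSG00000030789, chr7:128129547-128150657 in GRCm38, + strand). Veh-treated WT mice had 44.39, 40.17 and 54.26 CPM and veh-treated App mice 1579, 1840 and 1917 CPM. The mean rose from 46.27 ± 7.24 to 1779 ± 177 CPM (SD, n = 3), 38.5-fold or 5.27 on the log2 scale (95% interval 4.96 to 5.58, adjusted p = 8.75e-10). By p-value it was at rank 5 of all tested genes, and by fold at rank 29.

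*Clec7a* encodes Dectin-1, a C-type lectin receptor for beta-glucans that signals through the kinase Syk (ENSMUSG00000079293, chr6:129461591-129472779, − strand). It was at 63.34, 67.95 and 70.57 CPM in the WT mice and at 1063, 1175 and 944.9 CPM in the App mice. Both groups were narrow, and the difference was 15.8-fold (log2 fold change 3.98, interval 3.67 to 4.29, adjusted p = 4.3e-09). The annotation used here lists the gene as a polymorphic pseudogene, a class for loci that are coding in some strains.

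*Gpnmb* encodes a transmembrane glycoprotein of melanosomes and lysosomes that macrophages make under lysosomal load (ENSMUSG00000029816, chr6:49036546-49070929, + strand). The 3 WT mice had 3.42, 4.147 and 26.87 CPM, from 50, 70 and 361 counts. Veh-treated App mice had 1130, 1195 and 2128 CPM. Mouse 3 of the WT group was thus far above the other 2, and the coefficient of variation in that group was 116%. The log2 fold change was 7.05 (interval 5.53 to 8.56, adjusted p = 1.16e-05), a 132-fold difference and the sixth largest of all genes tested. Without mouse 3 of the WT group it was 8.61, so the size of the fold rests on that mouse while the direction and the call do not.

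*Cd52* encodes a small glycoprotein anchored to the surface of leukocytes (ENSMUSG00000000682, chr4:134082448-134095082, − strand). Its levels were 75.85, 71.56 and 72.35 CPM in WT and 318.6, 295 and 273.3 CPM in App mice. This was the smallest of the 8 differences, at 4.04-fold (log2 fold change 2.01, interval 1.73 to 2.3, adjusted p = 3.78e-07), and it was at rank 417 by fold. The gene *Crybg2* on the opposite strand overlaps it and had 0 to 7 counts.

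Of the secreted members, *Spp1* encodes osteopontin, a matrix protein and cytokine that binds integrins and CD44 (ENSMUSG00000029304, chr5:104435118-104441050, + strand). WT mice had 20.66, 26.78 and 48.61 CPM, and App mice 1338, 1484 and 3152 CPM. Mouse 3 of each group was well above the other 2, and the App mice had a coefficient of variation of 50.6%. The difference was 62.4-fold (log2 fold change 5.96, interval 4.93 to 7, adjusted p = 2.08e-06). Leaving out a mouse moved the log2 fold change to between 5.47 and 6.39. A gene model on the same strand, *Gm42793*, overlaps it and had 1 to 87 counts.

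*Csf1* encodes macrophage colony stimulating factor, a ligand of the receptor on which microglia depend for survival (ENSMUSG00000014599, chr3:107741048-107760469, − strand). It was at 151.8, 151.7 and 126.8 CPM in WT and at 1774, 2078 and 1701 CPM in App mice. The groups were far apart, and the difference was 12.9-fold (log2 fold change 3.69, interval 3.36 to 4.02, adjusted p = 1.17e-08).

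*Ccl6* encodes a CC chemokine of rodents that acts on the receptor Ccr1 (ENSMUSG00000018927, chr11:83587882-83593087, − strand). Levels of 92.88, 103.9 and 105 CPM in WT mice stood against 837.3, 793.1 and 817.1 CPM in App mice. The latter had a coefficient of variation of 2.72%, and the difference was 8.11-fold (log2 fold change 3.02, interval 2.79 to 3.25, adjusted p = 4.3e-09). A transcript on the opposite strand, *E230016K23Rik*, had 3 to 16 counts.

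*Lgals3* encodes galectin-3, a lectin that binds beta-galactosides, is released from microglia and gathers at damaged lysosomes (ENSMUSG00000050335, chr14:47367751-47386160, + strand). It was at 14.98, 12.32 and 10.72 CPM in WT and at 80.33, 75.01 and 85.93 CPM in App mice. The difference was 6.34-fold (log2 fold change 2.66, interval 2.28 to 3.05, adjusted p = 4.77e-07).

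**Figure D2:**
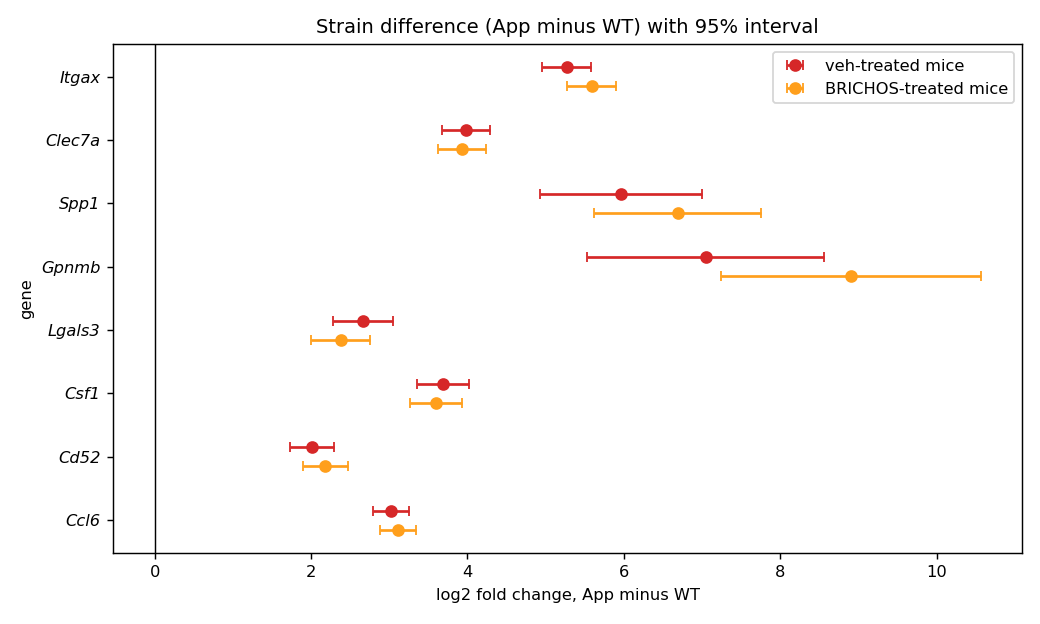
Log2 fold change of the 8 genes between App and WT mice (horizontal axis), with 95% intervals, for veh-treated and for rh Bri2 BRICHOS R221E-treated mice. Each interval lies above 0, and those of *Gpnmb* (5.53 to 8.56 with veh) and *Spp1* (4.93 to 7) are the widest.

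Levels of different genes can be compared only per length, and are given here as CPM per kb of annotated exon. The length is the union of all annotated exons of a gene. Which transcripts were expressed was not determined, so the order depends on the annotation. In veh-treated WT mice *Cd52* was highest (61.72 ± 1.92 CPM per kb), followed by *Ccl6* (56.04 ± 3.73), *Csf1* (27.16 ± 2.72) and *Clec7a* (25.51 ± 1.39), *Spp1* (19.43 ± 8.92), *Itgax* (9.634 ± 1.51), *Lgals3* (6.821 ± 1.16) and *Gpnmb* (1.762 ± 2.05). The values of *Csf1*, *Clec7a* and *Spp1* overlapped between neighbours in this order, and those of the other neighbours did not. In veh-treated App mice the order was led by *Spp1* (1208 ± 611 CPM per kb). *Ccl6* (454.5 ± 12.4), *Clec7a* (402.2 ± 43.7), *Itgax* (370.3 ± 36.9) and *Csf1* (350.4 ± 37.9) came next with ranges that overlapped from one to the next. *Cd52* (249 ± 19.1) and *Gpnmb* (227.8 ± 85.8) overlapped each other, and *Lgals3* was last (43.28 ± 2.94). *Cd52* thus went from the first to the sixth place, and *Spp1* from the fifth to the first.

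The strains were also compared under rh Bri2 BRICHOS R221E. All 8 genes were again higher in App mice (adjusted p between 5.26e-10 and 3.55e-06 by edgeR), where 20.8% of the tested genes were called higher. No mouse of one strain overlapped with those of the other in 8 of 8 (25.3% of all tested genes). The median log2 fold change was 3.77, against −0.042 for all tested genes. *Gpnmb* had 4.719, 3.544 and 3.659 CPM in treated WT mice and 1423, 1846 and 2433 CPM in treated App mice. With no WT mouse set apart here, its difference was 479-fold (log2 fold change 8.9, interval 7.24 to 10.57), the largest of all genes tested. *Spp1* differed 103-fold (log2 fold change 6.69) and *Itgax* 48.1-fold (5.59). For the other 5 genes the log2 fold change was 3.93 for *Clec7a*, 3.6 for *Csf1*, 3.11 for *Ccl6*, 2.38 for *Lgals3* and 2.18 for *Cd52*.

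The next question was whether rh Bri2 BRICHOS R221E changed the level of these genes in App mice. By edgeR 0 of 8 had an adjusted p-value under 0.05, where 0.00648% of the tested genes (1 gene) did. At an unadjusted p-value under 0.05 it was 1 of 8 (10.8% of tested genes), and DESeq2's Wald test called 0 of 8. Of the 8 fitted values 7 were above 0 and 1 below it, with a median log2 fold change of 0.18, while 52% of all tested genes were above 0, with a median of 0.008. The value below 0 was that of *Csf1*, at −3.49%. A lean above 0 was not particular to the 8 genes. It was also found in 9 of 9 genes grouped below as first stage, 14 of 15 as second stage and 13 of 14 of resting microglia. For Dectin-1 signalling 5 of 11 genes were above 0.

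*Itgax* was at 1831, 1804 and 2172 CPM in treated App mice and 1579, 1840 and 1917 CPM with veh, which gives a difference of 8.82% with a 95% interval from −8.85% to 29.9% (adjusted p = 0.775). *Clec7a* had 1104, 1448 and 1066 CPM with the treatment, 13.7% above the veh level (interval −5.71% to 37%, adjusted p = 0.651). Of these receptors, treated and veh-treated mice overlapped in both.

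*Cd52* was the member with the unadjusted p-value under 0.05. Its levels were 298.1, 432.4 and 343.8 CPM with the treatment and 318.6, 295 and 273.3 CPM with veh, a difference of 21.1% (interval 0.351% to 46.2%, adjusted p = 0.447 by edgeR). Treated mouse 2 was highest, and treated mouse 1 lay within the range of the veh-treated mice. *Ccl6* was at 859.5, 992.9 and 912.5 CPM with the treatment, and was the 1 of 8 genes in which every treated mouse was above every veh-treated one, as in 6.37% of the tested genes. The difference was 13% (interval −2.62% to 31.1%, adjusted p = 0.577 by edgeR).

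The members with the widest spread left the widest intervals. *Spp1* had 1562, 2286 and 3241 CPM with the treatment, 18.7% above veh with an interval from −32.9% to 110% (adjusted p = 0.871). Without treated mouse 3 the log2 fold change was −0.05 and without veh-treated mouse 3 it was 0.75, so that for *Spp1* not even the sign was fixed. *Gpnmb* had 1423, 1846 and 2433 CPM, 28.1% above veh (interval −41.4% to 180%, adjusted p = 0.861). *Lgals3* was at 77, 93.63 and 95.6 CPM (10.3%, interval −13.4% to 40.6%, adjusted p = 0.811). The log2 fold change of *Csf1* ran from −0.15 to 0.04 with a mouse left out, so its sign was not fixed either. *Csf1*, at 1623, 2044 and 1691 CPM, had the interval from −21.3% to 18.3% (adjusted p = 0.932 by edgeR). These intervals do not show that the treatment left the genes as they were.

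Astrocyte markers moved between the same groups, with summed levels of 4419, 3958 and 1375 CPM in the veh-treated and 1849, 640.2 and 1217 CPM in the treated App mice. All 6 were lower with the treatment at an unadjusted p-value under 0.05 and 0 of 6 after adjustment. Endothelial markers were lower in 6 of 6, with 5 of 6 under the unadjusted threshold and 0 after adjustment by edgeR (2 by DESeq2), and their summed levels were 413.2 to 556.6 CPM with veh and 350.9 to 404.2 CPM with the treatment. The microglial markers were at 21910 to 23410 CPM with veh and 22870 to 24370 CPM with the treatment. Whether these shifts had a part in the values of the 8 genes was not tested.

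**Figure D3:**
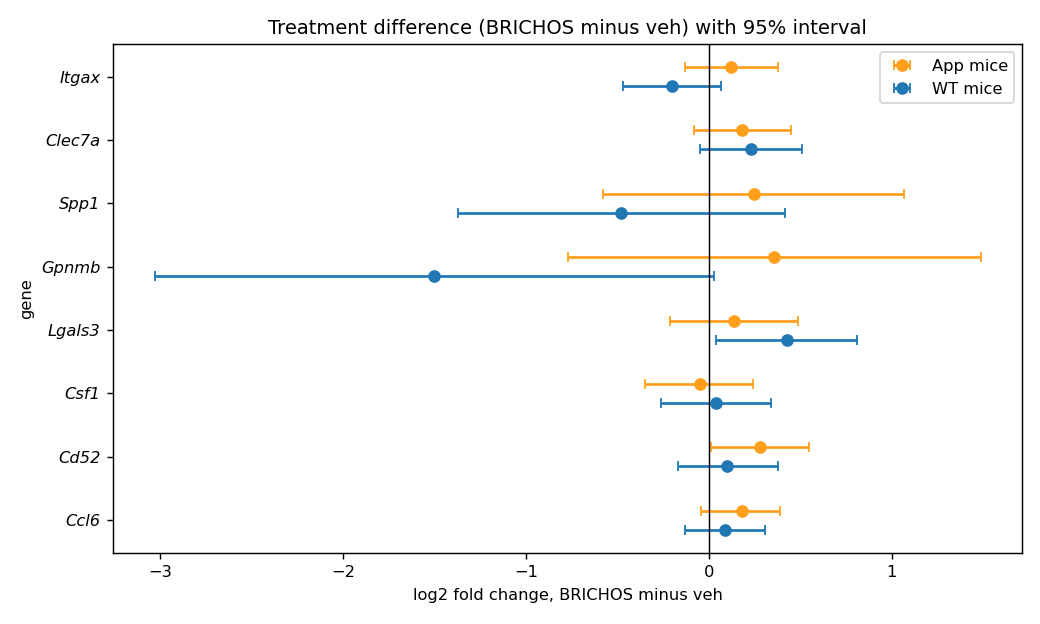
Log2 fold change of the 8 genes for rh Bri2 BRICHOS R221E against veh (horizontal axis), with 95% intervals, in App and in WT mice. All but 2 of the 16 intervals cross 0, the exceptions being *Cd52* in App mice (0.351% to 46.2% higher) and *Lgals3* in WT mice (log2 interval 0.04 to 0.81).

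In WT mice 0 of 8 genes passed the adjusted threshold for the treatment by edgeR or by DESeq2, and 0% of the tested genes were called by edgeR. At the unadjusted threshold it was 1 of 8, with 11.4% of all tested genes. Fitted values were above 0 for 5 genes and below it for 3. *Lgals3* was the gene with an unadjusted p-value under 0.05, at 12.4, 17.83 and 20.81 CPM with the treatment against 14.98, 12.32 and 10.72 CPM (34.3%, interval 2.69% to 75.7%, adjusted p = 0.4 by edgeR), and the groups overlapped. *Gpnmb* had the largest value, a log2 fold change of −1.5 (interval −3.03 to 0.03, adjusted p = 0.444). It rested on veh-treated mouse 3 with its 26.87 CPM, and without that mouse the log2 fold change was 0.06. *Itgax* was at 36.49, 41.01 and 43.17 CPM and *Spp1* at 18.5, 21.77 and 28.42 CPM with the treatment, which gave log2 fold changes of −0.2 and −0.48 (adjusted p = 0.581 and 0.709). Without veh-treated mouse 3 these were −0.07 and −0.06. *Clec7a* was at 68.77, 84.78 and 83.48 CPM (0.23, adjusted p = 0.525). For *Csf1*, *Cd52* and *Ccl6* the log2 fold changes were 0.04, 0.1 and 0.09. Border macrophage markers were higher with the treatment in 7 of 7, with 5 of 7 at an unadjusted p-value under 0.05, and their summed levels were 405.2 to 476.7 CPM with veh and 534.2 to 654.6 CPM with the treatment. Of the monocyte markers 4 of 6 were higher at that threshold (22.18 to 55.33 and 41.02 to 104.3 CPM). After adjustment edgeR called 0 in both lists. DESeq2 called 2 border macrophage markers and 1 monocyte marker with all libraries in the fit, and 4 and 1 with the compared groups alone. The part of these cells in the values of the 8 genes was not tested.

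Whether the treatment effects differ between the strains was tested within the same model. The difference passed the adjusted threshold in 0 of 8 genes by edgeR (0.00648% of tested genes) and in 0 of 8 by DESeq2, and the unadjusted one in 0 of 8 (14.8% of tested genes). Adjusted p-values were between 0.348 and 0.927. The largest value was that of *Gpnmb*, 1.86 on the log2 scale (interval −0.05 to 3.76), which was 0.3 without veh-treated WT mouse 3. *Spp1* had 0.72 and *Itgax* 0.32, with intervals from −0.49 to 1.94 and from −0.05 to 0.69, and without that mouse they had 0.3 and 0.2.

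The spread between mice was not the same for all members. The coefficient of variation within a group was between 2.72% and 15.4% for *Ccl6*, and between 22.1% and 50.6% for *Spp1* and 16.3% and 116% for *Gpnmb*. For *Itgax* it was 8.47% to 15.6%, for *Clec7a* 5.44% to 17.5%, for *Csf1* 10% to 17.7%, for *Cd52* 3.12% to 19.1% and for *Lgals3* 6.79% to 25.1%. Among treated App mice, mouse 1 was the lowest in 6 of 8 genes, and among treated WT mice mouse 1 was the lowest in 7 of 8. In the treated App group the highest value was that of mouse 2 in 4 genes (*Clec7a*, *Csf1*, *Cd52* and *Ccl6*) and that of mouse 3 in the other 4 (*Itgax*, *Spp1*, *Gpnmb* and *Lgals3*). Such counts were not made over all tested genes, and whether whole libraries were shifted was not tested.

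**Figure D4:**
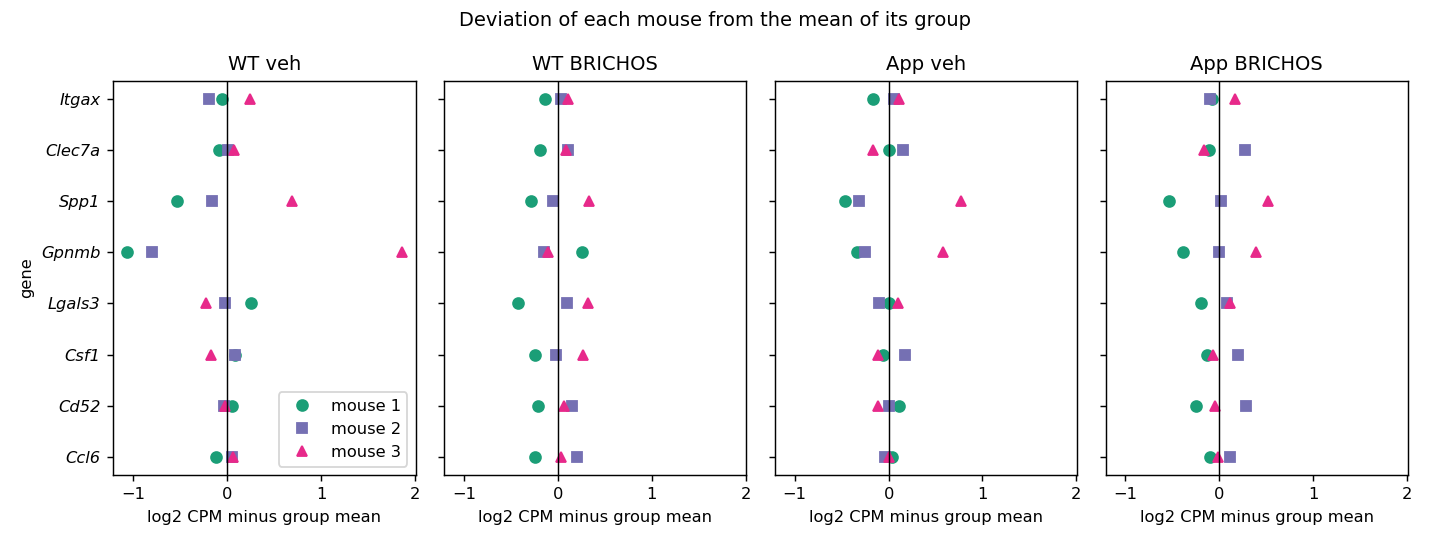
Deviation of each mouse from the mean of its group in log2 CPM (horizontal axis) for the 8 genes, in a panel per group. Points lie close to 0 for *Ccl6* in veh-treated App mice (793.1 to 837.3 CPM) and far from it for *Gpnmb* in veh-treated WT mice (3.42 to 26.87 CPM).

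To see which genes ran closest to each member, the log2 CPM of every tested gene was centred on its mean, and the root mean square difference to the member was taken over the 12 mice. Closest to *Itgax* was *Lpl*, the lipoprotein lipase (0.142, log2 fold change between the strains with veh 5.14). *Clec7a* ran closest to *Rab7b*, a small GTPase of late endosomes (0.135 and 4.12), *Spp1* to *Lgi2* (0.23 and 6.14), and *Csf1* to *Pdcd1*, the inhibitory receptor PD-1 (0.197 and 3.45). The gene nearest to *Cd52* was *Cd274*, which encodes PD-L1, the ligand of PD-1 (0.135 and 2). For *Lgals3* it was *Xylt1*, a xylosyltransferase of proteoglycan synthesis (0.159 and 2.62). *Gpnmb* had no gene as close, with *Mamdc2* at 0.708 (log2 fold change 7.28). Within the set the nearest pair was *Clec7a* and *Csf1* (0.219), and *Gpnmb* was farthest from any other member (1.08 to *Spp1*). As the 12 points are 6 mice of each strain, a gene with a like difference between the strains comes out close in this measure.

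Other genes of the state were counted beside the 8. Their split into a first and a second stage is that of the lists drawn up here, and it was not tested. Of 9 genes grouped as first stage 8 rose in veh-treated App mice and 1 did not pass the test, with a median log2 fold change of 1.57. *Apoe*, the lipid carrier, rose by 3.5 and the lysosomal protease gene *Ctsd* by 1.77, the MHC class I light chain *B2m* by 1.04, and the ferritin chain *Fth1* had 0.09 (adjusted p = 0.693). Of 15 further genes grouped as second stage 15 rose (median 1.86), from 0.94 for the chemokine *Ccl3* and 1.46 for *Trem2* to 5.14 for *Lpl* and 6.8 for the cystatin *Cst7*. The 14 genes of resting microglia showed 11 that fell, 2 that rose and 1 that did not pass (median −0.45), where 16.9% of all tested genes were called lower and 20.1% higher. The purinergic receptor gene *P2ry12* fell by 1.06 and *Tmem119* fell by 1.2, while *Fcrls* rose by 0.41. With the treatment in App mice, 0 genes of these 3 lists passed the adjusted threshold by edgeR or DESeq2, and at an unadjusted p-value under 0.05 it was 2 of 9, 2 of 15 and 1 of 14, where 10.8% of all tested genes passed it.

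Known partners, regulators and relatives of the members were counted in 7 lists. In none of them did a tested gene differ between the strains with veh by as many log2 units as the member its list belongs to. These differences are relative to the TMM scaling. With total counts alone the median log2 fold change of all tested genes was −0.212 in place of −0.022. This is a shift of the size of the smallest differences given here for these lists. The counts below stand beside 20.1% of all tested genes called higher and 16.9% called lower. For CD11c, the list of beta2 integrins, their ligands and activators gave 1 higher, 3 lower and 4 not called of 8. With a mouse left out, 3 to 4 were called in place of 4. The beta2 chain *Itgb2* rose by 0.4 (adjusted p = 0.000252 by edgeR) and the ligand *Icam2* fell by 0.61 (adjusted p = 0.0447). The activator *Fermt3* fell by 0.41, and the ligand *Icam1* had 0.61 (adjusted p = 0.0569). *Itgam*, which encodes the CD11b used for the isolation, fell by 0.28 (adjusted p = 0.00513). Of 11 genes of Dectin-1 signalling 8 fell and 1 rose, with a median of −0.27. With a mouse left out the number called was 6 to 8 in place of 9, and it was 6 without veh-treated WT mouse 1. The kinase *Syk* fell by 0.49 and the related lectin *Clec4n* fell by 0.92, the paracaspase *Malt1* rose by 0.7, and the adaptor *Bcl10* had 0.2 (adjusted p = 0.22). *Clec7a* itself thus differed in the direction opposite to most of this list.

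For osteopontin, 4 of 8 receptor genes rose and 2 fell (median 0.16). With a mouse left out the number called was 5 in place of 6. The integrin chain *Itga5* rose by 1.84 and *Cd44* by 0.8, *Itgb3* by 0.41 and *Itgb5* by 0.32. In contrast, *Itga9* fell by 1.32 and *Itgav* fell by 0.22 (adjusted p = 0.0478 for *Itgav* by edgeR). Of the CSF1 receptor axis, 9 of 10 genes could be tested, since *Csf2* did not pass the filter on low counts. With a mouse left out, 3 to 4 of them were called in place of 4. The receptor *Csf1r* fell by 0.37 (8105 ± 360 to 6282 ± 67.4 CPM, adjusted p = 0.000891), the GM-CSF receptor chain *Csf2ra* rose by 1.22, *Irf8* by 0.5 and *Csf3r* by 0.21, and the second ligand *Il34* was at 1.622 and 1.153 CPM (adjusted p = 0.282). The *Ccl6* receptor *Ccr1* fell by 0.66 (11.1 ± 1.89 to 7.056 ± 2.14 CPM), close to the threshold (adjusted p = 0.0488 by edgeR). Of the other chemokine genes, *Ccl3* and *Ccl4* rose by 0.94 and 0.79 and *Ccl2* fell by 1.42. The other 3 of the 7 in this list did not pass. With a mouse left out, 3 to 4 genes of this list were called in place of 4.

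Among 7 regulators and relatives of *Gpnmb*, 2 rose and 3 fell, and without veh-treated App mouse 1 the number called was 3 in place of 5. The transcription factor *Mitf*, for which *Gpnmb* is a known target, rose by 0.9 (39.69 ± 1.39 to 73.99 ± 2.75 CPM, adjusted p = 1.95e-07), and *Sdc4*, a proteoglycan that binds Gpnmb, rose by 2.22. The related factors *Tfec* and *Tfe3* fell by 0.83 and 0.31, and *Adam10*, a protease that sheds Gpnmb, fell by 0.33. Levels of *Tfec* were low, at 1.257 CPM in veh-treated WT and 0.7081 CPM in veh-treated App mice (adjusted p = 0.0363 by edgeR). The list of galectins held 5 tested genes. *Lgals3bp* among them, which encodes a galectin-3 binding protein and not a galectin, rose by 1.95. *Lgals9* and *Lgals4* fell by 0.42 and 0.88, and *Lgals1* had 0.41 (adjusted p = 0.0926 by edgeR). With the treatment in App mice, edgeR called 0 genes in each of these 7 lists. At an unadjusted p-value under 0.05 it was 0 to 2 genes per list, where 10.8% of all tested genes passed. DESeq2 called 1 gene, *Lgals9*, with all libraries in the fit (adjusted p = 0.00939) and 0 with the compared groups alone. In edgeR's fit *Lgals9* was at 217.4 CPM with the treatment and at 186.1 CPM with veh, a log2 fold change of 0.22 (adjusted p = 0.278), and the groups did not overlap. *Itgb2*, *Itgam*, *Itgb3*, *Itgb5*, *Csf3r*, *Csf2* and *Tfe3* were named after their values were seen, to complete the counts.

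**Figure D5:**
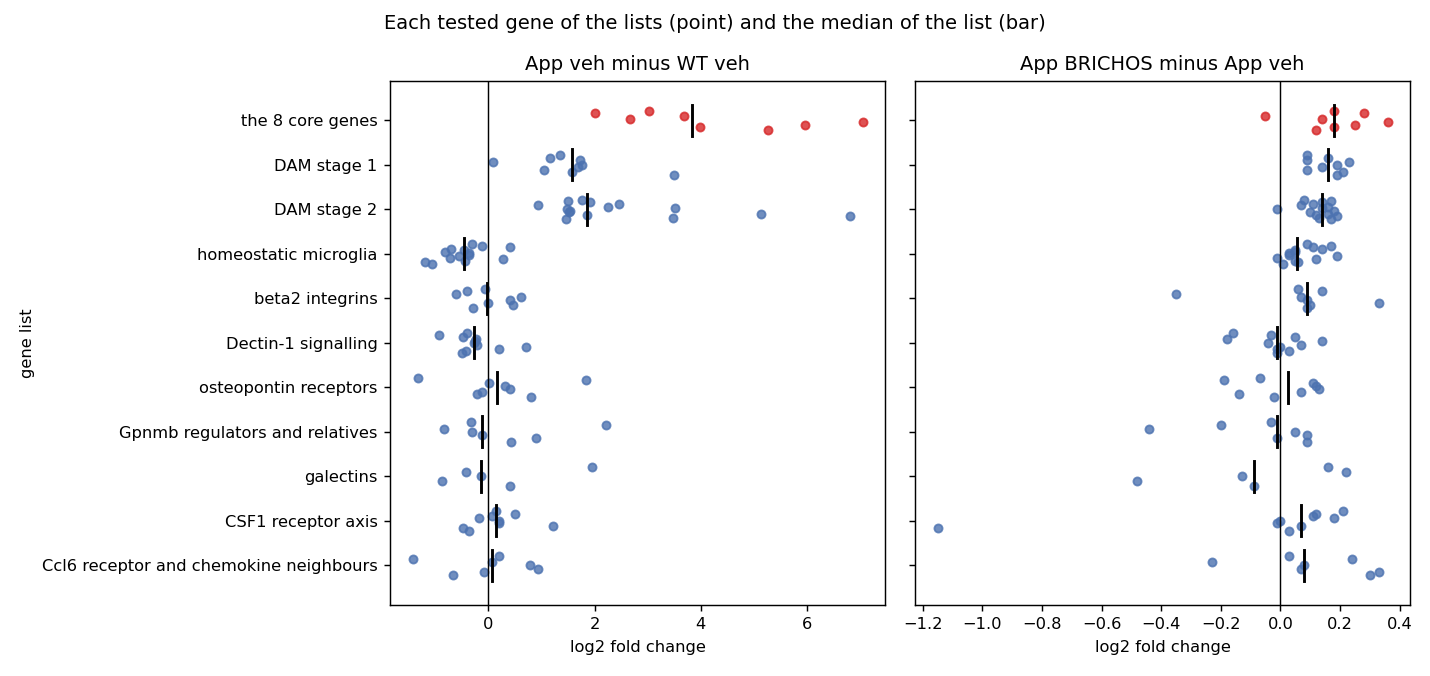
Log2 fold change (horizontal axis) of each tested gene of the 8 core genes and 10 related lists, with a bar for the median of each list, between the strains with veh (left) and between the treatments in App mice (right). The medians on the left are 3.83 for the 8 genes, 1.57 and 1.86 for the other genes as grouped here into 2 stages and −0.45 for the genes of resting microglia. The horizontal scales of the panels differ.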

How the data were processed

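Cortical CD11b-positive cells of 12 mice were sequenced (Illumina Stranded mRNA Prep). The authors trimmed reads with Cutadapt, aligned them to GRCm38 with STAR (the labels and the study's methods give different versions), counted them on genes with featureCounts 1.5.1 and deposited raw counts. The strand setting and the handling of shared reads are not given in the sources used here. Counts were analysed with edgeR 4.0.16, limma 3.58.1 and DESeq2 1.42.0 in R 4.3.3, and figures were drawn with matplotlib 3.10.9 (Python 3.11.15).

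Groups were taken from the library names. Of 55487 genes, 55227 were matched to a symbol (GENCODE M21) and 26314 had no count. Genes with low counts were removed by filterByExpr (minimum count of 10), and 15425 were tested in a quasi-likelihood fit of all 12 libraries with TMM factors and a mean per group. All tested genes entered the Benjamini-Hochberg adjustment. Levels are TMM-normalized CPM, and log2 CPM used a prior count of 2. Within groups, libraries differed beyond counting error (chi-square per degree of freedom 5.39 to 31), so none was counted as a duplicate. Exact permutation of 3 against 3 mice cannot reach a two-sided p below 0.1.

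The 8 genes and all lists were chosen with earlier results of these data known, and describe these data only. Named were the 8 genes, per comparison up to 2 genes of each list with the highest and 2 with the lowest log2 fold change, the gene with the nearest profile, and *App*. Results for 2 genes that this rule also takes are not reported here. Alternatives were DESeq2's size factors, total counts, DESeq2's Wald test, fits of the compared groups alone, other filters, the study's cutoffs, a replicate block, and leaving out each mouse.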

Additional observations from a re-analysis of the deposited data

How the results depend on the processing

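Under every alternative run, including each mouse left out, 8 of 8 genes were called higher in App than in WT mice with either treatment, and 0 of 8 were called for the treatment in App mice, in WT mice or for the difference of these effects. All 120 values of the 8 genes per comparison (152 for the difference) kept their side of the threshold. The sign changed in 3, 4 and 7 values of the last 3 comparisons, none of them called.

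Counts over all genes depended more on the processing. The study's cutoffs named below were applied here to edgeR's p-values and fold changes, while the study used DESeq2's Wald test. The counts they give are therefore not those of the study. With edgeR's unadjusted p under 0.05 alone, 1673 genes passed for the treatment in App mice and 7184 between the strains with veh. For the treatment in App mice 1 gene was called in the fit reported, 0 with total counts, 0 with edgeR on the compared groups alone, 0 with the replicate block, 25 without the filter, 119 with DESeq2 on all libraries, 60 with DESeq2 on the compared groups, 546 with the study's cutoffs (unadjusted p under 0.05 and absolute log2 fold change over 1), and 0 to 162 with a mouse left out (162 without veh-treated App mouse 3). In WT mice the 0 genes became 1, 80, 134, 12 and 392 with total counts, DESeq2 on all libraries, DESeq2 on the compared groups, no filter and the study's cutoffs, and 0 to 5 with a mouse left out (5 without treated WT mouse 1). For the difference of effects the 1 gene became 244 with DESeq2, 107 without the filter, 1039 with the study's cutoffs, and 0 to 88 with a mouse left out (62 without veh-treated WT mouse 3 and 88 without veh-treated App mouse 3). Between the strains, the study's cutoffs gave 1876 in place of 5710 genes with veh and 2666 in place of 6560 with the treatment, and leaving out a mouse gave 4449 to 5404 and 5461 to 6245. The causes of these differences were not tested.

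Mice carry the numbers 1 to 3 in each group, and equal numbers were not taken as pairs. Deviations of equally numbered mice correlated by −0.015 to 0.227, with 6 of 12 pairs over 0.1 and no comparison with every pair over it, and 10 of 12 libraries correlated best with their own number, a hint from the data and not the design. With the replicate block 5991 genes were called between the strains with veh, against 5710, and no call of the 8 genes changed.

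With 3 mice per group the interval for the treatment in App mice ran from −32.9% to 110% for *Spp1* and from −41.4% to 180% for *Gpnmb*, and the level of *Gpnmb* in WT mice rests on 50 to 361 counts.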
